A study of Drosophila melanogaster with 12 samples.

Results

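Saft (CG11247) is a Drosophila protein that the labels call a transcription factor. The sites described here are its narrow, constantly found autosomal sites that carry no peak of Phaser (CG7372), the other tagged factor of the study. Peaks of the 4 Saft libraries that overlapped by 1 bp or more were merged on 2L, 2R, 3L and 3R, which gave 1756 regions. A region was kept if all 4 libraries had a peak in it, if it touched no peak of either Phaser library, and if its widest peak was under 1000 bp. The sites were therefore chosen by measured values, namely the peak calls and peak widths of the 4 Saft libraries and the peak calls of the Phaser libraries. This left 159 narrow sites, 9.05% of the merged regions. All 159 are accounted for below, and no further filter was set on them.

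A sequence-specific factor is held at short DNA stretches, and chromatin immunoprecipitation (ChIP) recovers the fragments crosslinked to it, so that sequenced fragments pile up around each stretch. The top of the pile, the summit, usually lies near the bound sequence. Fragment length, crosslinking through partner proteins and closely spaced binding all add to the width of a peak. The study's title concerns silencers, which are DNA elements that lower the transcription of genes, and the mapping shows where the factors sit in the genome.

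The cells were Drosophila melanogaster Schneider S2 cells, an embryo-derived line. All lines carried OsTir1, the plant F-box protein through which auxin triggers degradation of a degron-tagged protein. In the Saft lines, clones 9C and 4H, both endogenous copies were tagged with FLAG and an auxin-inducible degron (Saft_FLAG-AID). The Phaser line carried the same tag on Phaser (Phaser_FLAG-AID), in clone 8D. Cells were left untreated, so neither protein was depleted, and the antibody was anti-FLAG M2. Each line is 1 clone, with 2 biological replicates, and no list from an untagged line was used here. The 12 samples are 6 ChIP libraries and 6 inputs, and the files are 1 peak list for each ChIP library, in coordinates of the dm3 build.

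The Saft lists held 1389 and 1515 peaks in clone 9C and 1212 and 1265 in clone 4H, and the Phaser lists 5299 and 3988. The narrow sites made up 13% and 11.9% of the autosomal peaks of the 9C lists and 15.2% and 14.2% of those of the 4H lists. Read depth is unknown. ChIP reads at each summit were recovered from the authors' fold enrichment and p-value and came out whole for 100% of peaks within 0.03 reads. Replicate 1 of clone 4H stood apart in width, with the narrowest peak at 109 of the 159 sites. Its list was also the shortest. Median widths below are therefore given by library.

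The 2 conditions of width and of Phaser overlap were linked in these lists. Of 670 autosomal regions found in all 4 Saft libraries, 354 were narrow by the same limit and 316 were wide. Among the narrow regions 195 (55.1%, 95% Wilson interval 49.9 to 60.2) touched a Phaser peak, against 12 of the wide ones (3.80%, 2.19 to 6.52). The intervals cover counting error only, over regions that share their lists. Both conditions are part of the selection, and the difference was not tested. The narrow sites without Phaser are thus the remaining 159, and their nearest counterpart is a set of 304 wide sites without Phaser. The Phaser condition rests in part on 1 library. Phaser replicate 1 alone removed 81 narrow regions, both Phaser lists removed 114, and replicate 2 alone removed 0. Without Phaser replicate 1, 240 regions would have qualified. The 81 regions were weak, with median fold enrichments of 3.52 and 3.56 in the 9C libraries and 3.36 and 3.34 in the 4H libraries. The 114 regions were weak too, with 4.26 and 4.07 in 9C and 3.885 and 3.86 in 4H. In every library both sets had lower medians than the 159 sites kept, so the Phaser condition removed mainly weaker narrow regions.

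The narrow sites covered nearly the whole range of Saft enrichment, from peaks close to the caller's limit to some of the strongest. Enrichment is the authors' fold, the ChIP pileup divided by the caller's background where the peak is highest, and it is used here to describe and rank sites within a list. In clone 9C it ran from 1.92 to 16.0 in replicate 1, with a median of 6.66, and from 2.04 to 13.8 in replicate 2, with a median of 5.91. In clone 4H it ran from 2.32 to 13.7 in replicate 1, with a median of 5.24, and from 2.33 to 17.4 in replicate 2, with a median of 6.51. The medians over all autosomal peaks of these lists were 3.63 and 3.36 in 9C and 3.76 and 3.67 in 4H. The wide sites were more uniform, with medians of 11.4 and 10.2 in 9C and of 10.7 and 11.8 in 4H. Their lower quartiles, 8.78 to 10.1 over the 4 libraries, lay above the medians of the narrow sites in every library. Width and presence in all lists both depend on enrichment, so these values describe what the selection picked and carry no test.

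**Figure D1:**
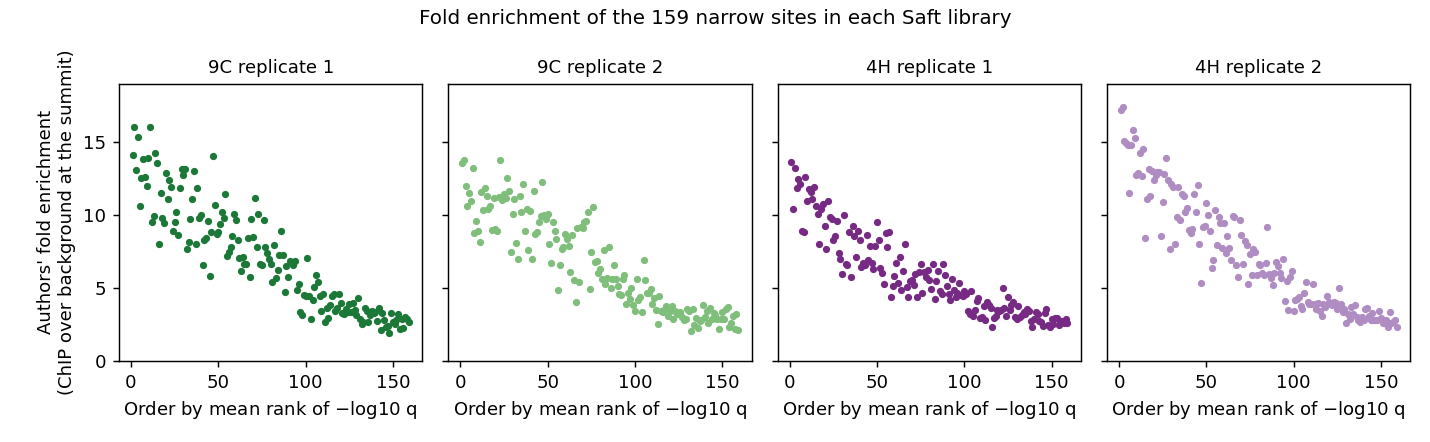
Authors' fold enrichment (vertical axis, ratio of ChIP over background at the summit) of the 159 narrow sites, placed from strongest to weakest by the mean rank of −log10 q over the 4 Saft libraries (horizontal axis). Each panel is a library and each point a site, and the values slope down without a gap from at most 16.0, 13.8, 13.7 and 17.4 to at least 1.92, 2.04, 2.32 and 2.33.

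Recovered reads gave the same picture on a scale that does not divide by background. They derive from the same fold and p-value, so they are no separate evidence. The selection bears on them as on fold, and they carry no test. The median summit of a narrow site held 150 and 160 ChIP reads in the 9C libraries and 115 and 134 in the 4H libraries. Wide sites had medians of 264 and 265 in 9C and of 256 and 260.5 in 4H. The highest summit of any Saft list held 287 to 290 reads, so most wide sites sat close to the top of the scale. In both Phaser lists the highest summit held 283 reads, nearly the same. Whether reads saturate near this level was not tested, so reads may understate differences among the strongest sites. The same limit holds for fold and −log10 q, which rest on the same summit pileup, and for ranks among the strongest sites. Summits of 250 reads or more made up 77.3% and 79.3% of wide sites in 9C and 60.9% and 66.8% in 4H. Among narrow sites they made up 13.8% and 14.5% in 9C and 7.55% and 10.1% in 4H. Only 12 narrow sites reached 250 reads in all 4 libraries, and 135 reached it in none. Background under the sites differed little. Its median was 8, 8.80, 8.55 and 8 under narrow sites and 8.33, 9, 9 and 8 under wide ones, in the order 9C replicates 1 and 2 and 4H replicates 1 and 2. In each library 2 to 5 of the 159 narrow sites had the lowest background that the list contains.

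The strongest narrow sites were found on 2L, 3L and 3R. The best mean rank of −log10 q belonged to a site on 2L at 15406752 to 15407582, with a fold of 14.1 and 13.6 in 9C and of 13.7 and 17.2 in 4H. Its summits held 272, 271, 263 and 266 reads, and it ranked 1 or 2 among the 159 sites in every library. The next site, on 2L at 4613908 to 4614857, had a fold of 16.0 and 13.7 in 9C and of 10.4 and 17.4 in 4H. It ranked 1, 1 and 2 in 3 of the libraries and 10 in replicate 1 of 4H. A site on 3L at 6122493 to 6123175 had a fold of 13.1 and 12 in 9C and of 13.2 and 15.1 in 4H, in peaks of only 555 to 683 bp. All 3 sites were thus high in every library. Of these, 2 lay within 5 kb of a Phaser peak, at 1859 and 2968 bp, without touching it. Among the 53 sites with the best mean rank 14 (26.4%) lay that close, against 37 of all 159 (23.3%), and the difference was not tested.

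The other sites of the best 8 were similar in level. Mean folds here and below are taken over lists that differ in background, and their SD mixes clones and replicates. On 2L at 2476880 to 2477776 the mean fold was 13.2 ± 2.33 (SD, n = 4 libraries), and on 2L at 10660840 to 10661730 it was 11.5 ± 3.38. On 3L at 6472534 to 6473506 it was 12.4 ± 1.78, and on 3R at 17489847 to 17490905 and 27322459 to 27323274 it was 11.8 ± 0.681 and 12.7 ± 2.63. None of the 8 was on 2R. These regions are named by position, since no dm3 gene annotation or sequence was used here.

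The sites with the worst mean rank had folds of 2.1 to 3.24 in the single libraries. The lowest was on 3L at 19034241 to 19034564, with a fold of 2.64 and 2.1 in 9C and of 2.62 and 2.33 in 4H, and 69 to 78 reads. The sites on 2R at 1782687 to 1782999 and on 2L at 9856319 to 9856607 averaged 2.96 ± 0.193 and 2.64 ± 0.335 fold (SD, n = 4 libraries). The remaining one, on 3L at 5124818 to 5125586, averaged 2.67 ± 0.334 fold and ended 46 bp before a wide site. Of the 159 sites, 39 had a −log10 q under 10 in all 4 libraries and 100 had 10 or more in all 4. A q of 0.05 corresponds to a −log10 q of 1.3.

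The order of the sites was much alike in the 4 libraries. Spearman's rho of −log10 q over the 159 sites was 0.952 between the replicates of 9C and 0.954 between those of 4H. Between a 9C and a 4H library it was 0.905 to 0.932. For fold the 6 pairs gave 0.858 to 0.918, and for recovered reads 0.934 to 0.987. These correlations describe sites that share their libraries and their caller's background, and they carry no p. Of the sites, 42 were among the strongest 53 in all 4 libraries and 44 among the weakest 53 in all 4. The rank of a site moved by a median of 22 places of 159 over the libraries.

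**Figure D2:**
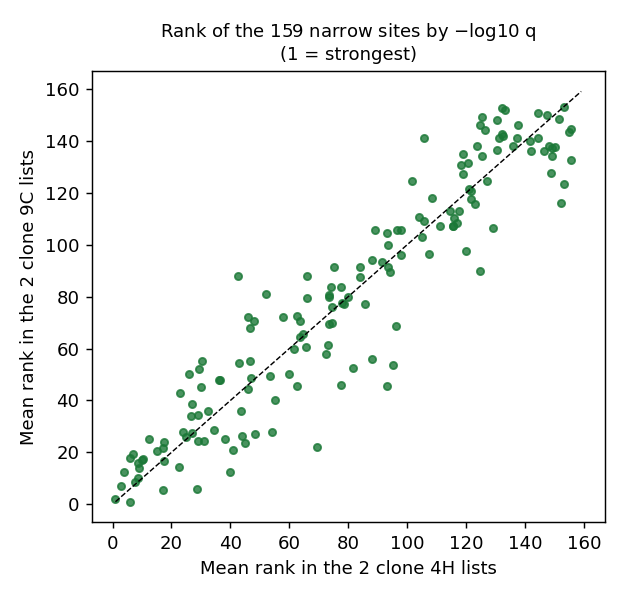
Mean rank of −log10 q (1 is the strongest) of each of the 159 narrow sites in the 2 clone 9C lists (vertical axis) and in the 2 clone 4H lists (horizontal axis). Each point is a site and the dashed line marks equal ranks, around which most points lie, with rho of 0.905 to 0.932 between libraries of different clones.

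Some sites ranked differently in the clones, and the 4 whose ranks moved most are given here. The site on 2L at 669954 to 670933 had a fold of 14 and 12.2 in 9C and of 6.72 and 5.34 in 4H, and it ranked 16 and 29 in 9C and 56.5 and 82 in 4H. Its summits agreed within 9 bp. On 3L at 11918079 to 11918955 the fold was 11.2 and 9.53 in 9C and 5.24 and 6.67 in 4H, with ranks of 41 and 50 in 9C and of 92 and 94 in 4H. On 2R at 7285663 to 7286246 the order was the reverse, with a fold of 6.66 and 5.55 in 9C and of 6.19 and 9.91 in 4H, and ranks of 89 and 87 in 9C and of 50 and 35 in 4H. The site on 3L at 6916969 to 6917302 ranked 140 and 142 in 9C and 90 and 121 in 4H, with 63 and 77 reads in 9C and 98 and 69 in 4H. Since they were chosen for this, their differences are a description.

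Ranks that did not overlap between the clones were about as frequent among narrow sites as among all regions found in the 4 Saft libraries. When the 670 regions were ranked in each library, 35 of the 159 narrow sites (22.0%) had a better rank in both 9C lists than in both 4H lists, against 18.1% of all 670. The opposite held for 33 (20.8%), against 20.0% of all 670. Shares this near to those of all regions are no result about the narrow sites. No single site was tested between the clones.

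Narrow peaks were narrow to different degrees. The median width of the strongest peak per site was 498 and 549 bp in clone 9C and 380 and 529 bp in clone 4H. Peaks ran from 160 to 997 and from 160 to 974 bp in 9C and from 151 to 943 and from 152 to 999 bp in 4H. In 53 sites the widest peak of any library was under 500 bp, and in 106 it was 500 bp or more. Wide sites had median widths of 1371 and 1434 bp in 9C and of 1093 and 1450 bp in 4H. In 147 of the 159 narrow sites each library had a single peak. Several peaks in a list were found at 1 to 7 narrow sites per library, against 50 to 67 of the 304 wide sites.

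**Figure D3:**
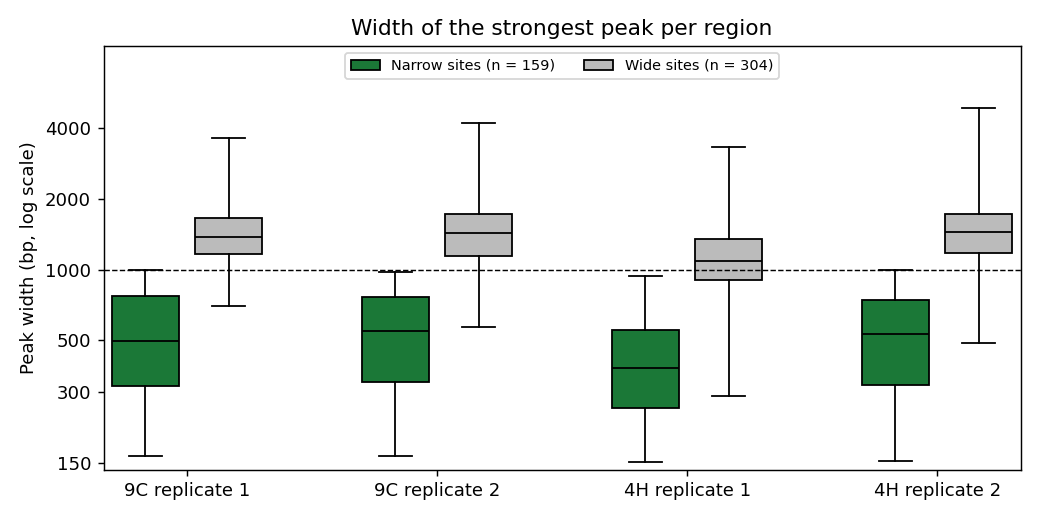
Width of the strongest peak per region (vertical axis, bp, log scale) in each Saft library for narrow sites, left of each pair, and wide sites, right. Boxes span the quartiles with the median as a line, whiskers reach the lowest and highest value, and the dashed line is the limit of 1000 bp; medians of narrow sites are 498, 549, 380 and 529 bp, and the 4H replicate 1 library is lowest for both sets.

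Widths of the clones overlapped. The mean of the library medians was 523.5 ± 36.1 bp in 9C and 454.5 ± 105 bp in 4H (SD, n = 2 libraries each). The difference of 69 bp had p = 0.667 (exact permutation test over libraries, two-sided), and 0.333 is the smallest p that 2 against 2 libraries allow, so the test cannot show whether the clones differ. The limit of 1000 bp, applied to all 4 libraries alike, also bounds the widths. The difference rests on replicate 1 of 4H, without which the difference was −5.50 bp.

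Width followed read number among the narrow sites. Spearman's rho between width and recovered reads over the 159 sites was 0.800 and 0.753 in the 9C libraries and 0.805 and 0.800 in the 4H libraries, a relation within each library that shares its depth. Widths of the sets can be set side by side at like read numbers, though like reads near the top of the scale need not mean like strength. Among summits of 250 reads or more, narrow sites had a median width of 847.5 and 820 bp in 9C and of 718 and 806 bp in 4H, from 22, 23, 12 and 16 sites. Wide sites of that read number had 1379 and 1435 bp in 9C and 1220 and 1532 bp in 4H. Among summits of 200 to 249 reads the narrow medians were 768 and 729 bp in 9C and 587 and 768 bp in 4H, and the wide ones 1346 and 1420 bp in 9C and 939 and 1289 bp in 4H. The selection fixes this order of widths, so the sizes alone are described.

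No break separated sites on either side of the 1000 bp limit. Just inside it were the sites on 3R at 12320247 to 12321293 and 17489847 to 17490905, with widest peaks of 999 and 997 bp, and on 2R at 3785633 to 3786624 and 4622651 to 4623641, with 992 and 991 bp. Their mean folds were 12.4, 11.8, 11.6 and 11.1. Just outside were the sites on 2L at 2464218 to 2465287, with 1000 bp, on 3R at 2074173 to 2075180, with 1002 bp, on 3L at 4692039 to 4693072 and on 3R at 2079969 to 2080981, with 1004 bp each. Their mean folds were 13.6, 12, 11.5 and 12.3. The narrowest sites were weak. They lay on 3L at 6465170 to 6465374, on 3R at 11738914 to 11739174 and 19020098 to 19020310 and on 2R at 20847827 to 20848091. Their widest peaks were 193, 203, 207 and 218 bp, and their mean folds were 3.16, 3.17, 3.46 and 2.99.

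Summits of the 4 libraries lay close together. The selection set no limit on summit positions as such, but overlapping peaks under 1000 bp bound how far apart they can lie, most tightly at the narrowest sites, so the distances are a description. The range of the 4 summit positions of a site had a median of 26 bp, with quartiles of 14.5 and 66 bp, and was 100 bp or less at 136 of the 159 sites (85.5%). Among the 240 sites that qualified without Phaser replicate 1 the median was 46.5 bp, and at a −log10 q limit of 10 it was 17 bp over 100 sites. Between any 2 libraries the median distance was 11 to 15 bp, no smaller within a clone (12 and 13 bp) than between clones (11 to 15 bp). At the site on 3L at 6472534 to 6473506 all 4 summits were at 6473265, and at that on 3R at 17489847 to 17490905 all 4 were at 17490493. At the strongest site, on 2L at 15406752 to 15407582, they lay at 15407225, 15407224, 15407222 and 15407224.

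Agreement of summits went with strength. The strongest 53 sites had a median range of 15 bp, the middle 53 of 25 bp and the weakest 53 of 80 bp, and the range was 100 bp or less in 51, 51 and 34 of them. The median reads of these sets in replicate 1 of 9C were 238, 150 and 71. The part of read number in the summit range was not tested. Wide sites had a median range of 17 bp over 304 sites, close to the strongest narrow ones. Among narrow sites the largest range, 725 bp, was at a weak site on 2L at 4377812 to 4378699, 254 bp from a wide site. Its summits were at 4378591 and 4377921 in 9C and at 4377866 and 4377961 in 4H. It was chosen after the values were seen.

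**Figure D4:**
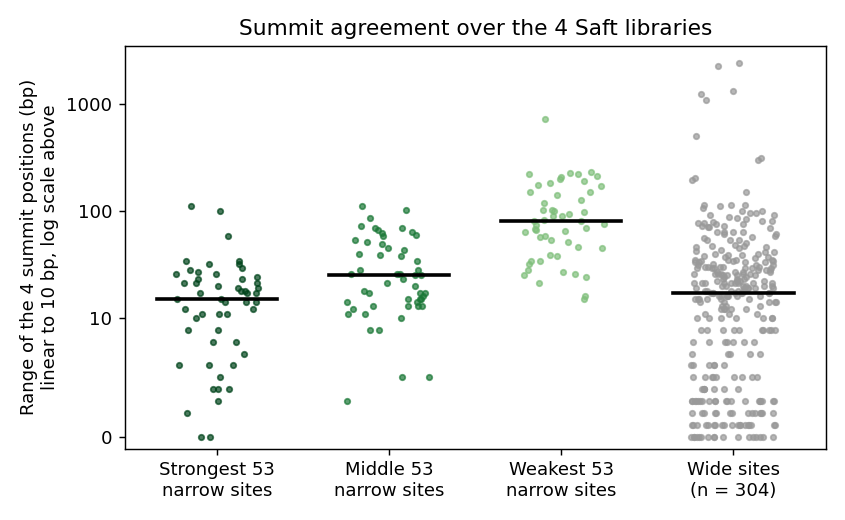
Range of the 4 summit positions (vertical axis, bp, linear to 10 and log scale above) for the strongest, middle and weakest 53 narrow sites by mean rank of −log10 q, and for the 304 wide sites. Each point is a site and the bars are medians, at 15, 25, 80 and 17 bp.

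The narrow sites were spread over all 4 arms. There were 39 on 2L, 34 on 2R, 46 on 3L and 40 on 3R, or 1.75, 1.63, 1.95 and 1.44 per Mb of the span up to the last peak of any list. Wide sites numbered 52, 70, 80 and 102 in the same order. The narrow share of sites without Phaser was 42.9% on 2L (95% Wilson interval 33.2 to 53.1), 32.7% on 2R (24.4 to 42.2), 36.5% on 3L (28.6 to 45.2) and 28.2% on 3R (21.4 to 36.1). The intervals of 2L and 3R overlap, which does not show that the shares are alike, and the arms were not tested against each other. These intervals cover counting error only. Of the 53 strongest narrow sites 18 were on 2L, against 12 on 2R, 11 on 3L and 12 on 3R.

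Many narrow sites had another Saft site close by. The gap to the nearest other Saft region of any kind had a median of 2859 bp, and it was 1 kb or less at 57 of the 159 sites (35.8%, 28.8 to 43.6). Wide sites had a median gap of 621 bp, with 167 of 304 (54.9%, 49.3 to 60.4) at 1 kb or less. Against regions found in all 4 Saft libraries alone the sets were closer. The median gap was 6437 bp for narrow and 5034 bp for wide sites, and 75 of 159 (47.2%, 39.6 to 54.9) and 151 of 304 (49.7%, 44.1 to 55.3) had such a region within 5 kb. Within 1 kb the order was the reverse, at 30 of 159 narrow sites (18.87%, 13.55 to 25.66) and 46 of 304 wide sites (15.13%, 11.54 to 19.59). These are counts over regions that share their lists, and the difference between the sets was not tested. The median gap of narrow sites to any other Saft region was 7220 bp for the 240 sites that qualified without Phaser replicate 1. At a −log10 q limit of 10 it was 9774 bp, but that limit also removed the weaker Saft peaks as neighbours. With all Saft regions as neighbours, the strongest, middle and weakest 53 narrow sites had median gaps of 2334, 4273 and 4687 bp.

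Some narrow sites adjoined a wide one. A wide site lay within 1 kb of 20 narrow sites (12.6%, 8.29 to 18.6), and 11 of these 20 were among the weakest 53. Their median fold was 3.43 and 3.86 in 9C and 3.68 and 3.93 in 4H. The 139 other narrow sites had 6.87 and 6.30 in 9C and 5.31 and 6.67 in 4H. The closest pair lay on 3L, where the narrow site at 8489540 to 8490290 lay 11 bp from a wide site. Whether such sites are places of their own or the flank of a wide peak was not tested.

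**Figure D5:**
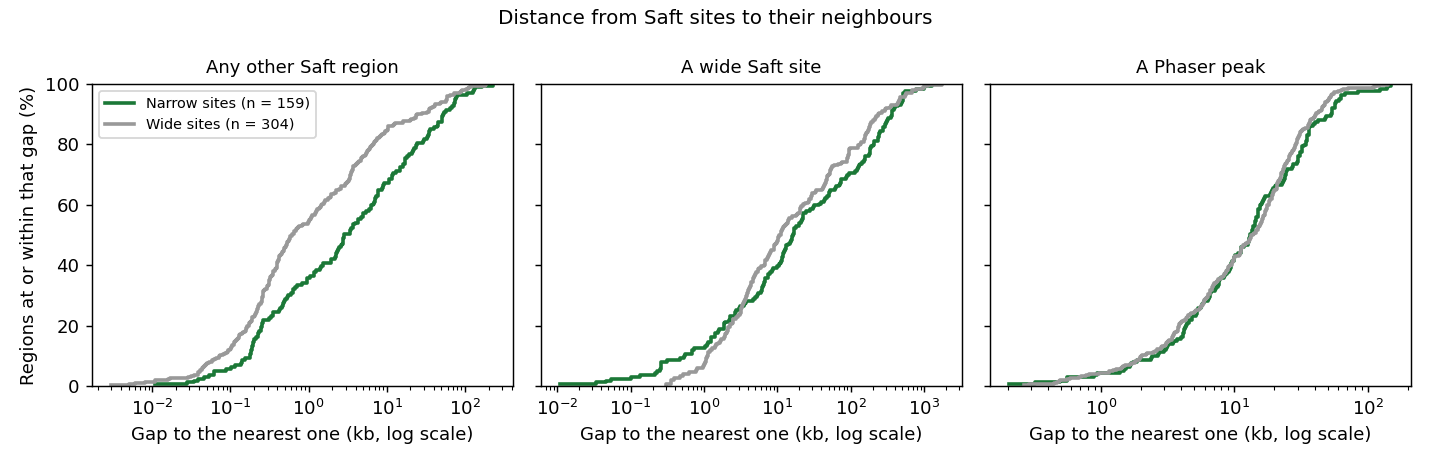
Share of sites (vertical axis, %) with a neighbour at or within a given gap (horizontal axis, kb, log scale), for 159 narrow and 304 wide sites; the panels take as neighbour any other Saft region, a wide Saft site and a Phaser peak. In the left panel the narrow line is lower, with medians of 2859 bp for narrow and 621 bp for wide sites, and in the right panel the lines nearly coincide, with medians of 13198 and 13624 bp.

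When regions of all 4 Saft libraries were joined across gaps of up to 5 kb, 84 narrow sites (52.8%) stood alone, against 153 wide sites (50.3%). Of the others, 49 were in a pair and 26 in a chain of 3 to 6 regions, and 52 narrow sites (32.7%) shared a pair or chain with a wide site. The chain with the most narrow sites lay on 2L at 2464218 to 2477776. It spanned 13.6 kb and held 5 regions, of which 3 were narrow, 1 was wide and 1 overlapped Phaser. One of its narrow sites, at 2476880 to 2477776, is among the 8 strongest.

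The densest 100 kb held 7 narrow sites, on 3R at 27289861 to 27381194, a stretch of 91.3 kb. They were of very unlike strength. The strongest, at 27322459 to 27323274, had a fold of 13.9 and 13.2 in 9C and of 8.89 and 14.8 in 4H. The sites at 27306217 to 27307330, 27335672 to 27336342 and 27366889 to 27367793 averaged 8.66 ± 0.956, 7.90 ± 1.5 and 7.95 ± 1.60 fold (SD, n = 4 libraries). Those at 27301532 to 27301943 and 27380859 to 27381194 averaged 6.16 ± 1.01 and 4.02 ± 0.278 fold. The weakest, at 27289861 to 27290203, averaged 3.25 ± 0.369 fold. In 5 of the 7 the summits agreed within 20 bp over the 4 libraries.

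Phaser peaks lay at like distances from narrow and wide Saft sites. The gap to the nearest Phaser peak had a median of 13198 bp for narrow sites and 13624 bp for wide sites. It was 5 kb or less at 37 of 159 narrow sites (23.3%, 17.4 to 30.4) and at 74 of 304 wide sites (24.3%, 19.9 to 29.5). The selection removed overlaps but set nothing on the distance beyond them, and the difference was not tested. The nearest narrow sites lay on 2R at 17261148 to 17261463, on 2L at 8922933 to 8923296, on 3L at 1846289 to 1847123 and on 2L at 2473232 to 2474095. Their gaps were 206, 319, 491 and 559 bp. Their mean folds were 2.63 ± 0.157, 2.61 ± 0.421, 7.09 ± 0.808 and 13.1 ± 1.45 (SD, n = 4 libraries), so both weak and strong sites came this close.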

How the data were processed

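Each ChIP library had 1 deposited peak list in narrowPeak format. Tools named in the submitters' processing notes are MACS2 2.1.2.1, bedtools 2.27.1, Trim Galore 0.6.2 and Bowtie 1.2.2, with build dm3, and no settings or control are given in the sources used here. The deposited fold is a linear ratio, the caller's p-value and q-value were deposited as −log10, and the deposited score was not used. Depth is unknown. Reads were recovered by taking fold as pileup plus 1 over background plus 1 and p as a Poisson tail. With a factor 3% too large, 4.35% to 7.00% of peaks came out whole. That share was taken by rescaling the recovered whole reads without a new fit, so it does not test the recovery. A region takes the values of its peak with the highest −log10 q in each list. Positions are 1-based.

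The narrow sites, the regions named and the strength sets were chosen with earlier results of these data known. Named regions were the 8 best and 4 worst by mean rank, the 4 with the largest rank range, those nearest to the width limit and to Phaser, the 4 narrowest and those of the densest 100 kb. Library medians of width were compared by exact permutation. Alternatives were other overlap, width, q and Phaser conditions and each library left out. Site finding and read recovery were tested on simulated data. Python 3.11.15, numpy 2.4.6, scipy 1.17.1, pandas 2.3.3 and matplotlib 3.10.9 were used.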

Additional observations from a re-analysis of the deposited data

How the results depend on the processing

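The values depend most on how weak regions and Phaser overlaps are treated, and read depth, which is unknown, limits what any list could detect. Under each alternative, width, fold and −log10 q are means of the library medians, over lists that differ in background. Summit ranges and gaps are medians over sites. With only Saft peaks of −log10 q of 10 or more there were 100 narrow sites (1.06 per Mb). They had a width of 640.9 bp, a fold of 8.38 and a −log10 q of 46.8. Their summit range was 17 bp, and their gap to another Saft region within that limit was 9774 bp. With Phaser taken as the stretches common to both lists there were 240 sites (2.54 per Mb), with 371.9 bp, 4.08 fold, −log10 q of 10.1, a summit range of 46.5 bp, 7220 bp to another Saft region and 16050 bp to Phaser. A width limit of 800 bp gave 385.2 bp, 4.44 fold, −log10 q of 13.0 and a summit range of 36 bp, and a limit of 1200 bp gave 599.6 bp, 7.47 fold and −log10 q of 37.8. Summits within 100 bp gave a −log10 q of 31.6. By measures added after seeing the data, the gap to a region found in all 4 Saft lists was 6437 bp, and that to a stretch common to both Phaser lists was 17121 bp.

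Leaving out each library in turn gave 159 to 240 sites (1.68 to 2.54 per Mb), widths of 371.9 to 489 bp, folds of 4.08 to 6.08, −log10 q of 10.1 to 26.4, summit ranges of 21 to 46.5 bp, and gaps of 2715 to 7220 bp to Saft and 12906 to 15668 bp to Phaser. The highest counts, summit range and gaps and the lowest width, fold and −log10 q came from leaving out Phaser replicate 1, and without replicate 1 of 4H the fold was 4.38 and −log10 q 12.3. The 9C minus 4H width difference then ranged from −5.50 bp, without replicate 1 of 4H, to 143.5 bp. With a replicate block it was 69 bp (exact permutation p = 0.5, the smallest it allows). Replicate 1 minus replicate 2 widths of single sites were hardly correlated between clones (correlation −0.0796 over 159 sites). That correlation cannot see a shift common to all sites. Replicate 1 had the lower median width in both clones, 498 against 549 bp in 9C and 380 against 529 bp in 4H. Whether same-numbered libraries share a batch was not tested. Of 122 values recomputed, 85 stayed within their spread or, for counts, within 1.5 times; the cause of the other shifts was not tested. Of the ranks of named sites, 10 of 33 moved by more than their spread with fold and 11 of 33 with recovered reads, the latter not planned.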
